A study of Mus musculus with 6 samples.

Results

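Interferon-stimulated genes (ISGs) are transcripts that cells raise when interferon reaches them, and 34 such genes, chosen by name from the 54532 genes of a count table, were followed through 6 RNA-seq libraries of mouse stromal cells. All 34 names matched 1 row each, and 27 of them had enough counts to be among the 13705 genes tested. The cells were MSCs (mesenchymal stromal cells, adherent cells able to form bone, cartilage and fat) grown from alveolar bone, the ridge of the jaw around the tooth roots. Ccrl2-KO mice (lacking an atypical receptor for the adipokine chemerin) gave 3 libraries (KO replicates 1 to 3), and wild-type mice gave the other 3 (WT replicates 1 to 3). The submitters describe all 6 cultures as inflamed with TNFα, and the series title names osteogenic induction. The count columns of both genotypes have Ctrl in their names, a word absent from the sample labels that may mean cells without TNFα, so whether the levels are those of treated cells is not known. The strain and age of the mice and the make of the KO allele are not stated. The replicates are called biological, without a statement that each came from its own mouse, so that p-values may measure only the spread between cultures.

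Type I interferons signal through the receptor IFNAR and the kinases JAK1 and TYK2, which activate STAT proteins. STAT2 and IRF9 are subunits of the complex ISGF3, which binds the interferon-stimulated response element in the promoters of ISGs. The proteins made from them sense viral nucleic acid, block viral replication or release, and feed back on the pathway. In bone, interferon signalling is known for restraining osteoclast formation, and TNFα can lead to ISG expression through interferon-β in macrophages.

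The comparison of KO with WT asks whether the level of ISG transcripts depends on the genotype. The KO libraries held 16225227 to 18616433 counts and the WT libraries 16114974 to 18244287. Levels are given as CPM (counts scaled by the library total). A gene with a count of 0 could still have an expected count of up to 3, which is 0.161 to 0.186 CPM (counting error only). Ccrl2 itself had 0 counts in each KO library, against 4, 3 and 0 counts in WT replicates 1, 2 and 3, which is too few to check the genotypes. Summed over 10 mesenchymal stromal markers, levels were 41300 to 68200 CPM in KO and 61800 to 73500 CPM in WT. Collagen transcripts made up most of this sum, with Col1a1 at 39300 and Col1a2 at 21400 CPM in KO replicate 1. Of the 10 markers, 7 were lower and 3 higher in KO, and Thy1 was called lower (adjusted p = 0.00141, edgeR). In contrast, 10 markers of T, NK and B cells gave 0 to 2 counts per library. Fewest genes were detected in KO replicate 2, at 16428, against 18928 to 19372 in the others, and it lay apart from them over all genes. The sum of 20 macrophage markers was 107 to 115 CPM in KO and 397 to 457 CPM in WT, and 14 of the 18 tested were called lower in KO (edgeR). In such bulk samples, fewer cells of a type and less RNA per cell cannot be told apart.

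No ISG that could be tested passed the test between KO and WT, and 1 WT library held the highest level of nearly all of them. WT replicate 2 was the highest of the 6 libraries for 25 of the 27 tested ISGs (92.6%), against 12.6% of all tested genes, and it was at least 1.5 times the next library for 19 of them (70.4%), against 0.781% of all tested genes. An excess of ISG transcripts in this library was known before the genes were listed, so these shares are a description. The exceptions were Ifit2, highest in WT replicate 3, and Ifi35, highest in KO replicate 2. Of the 27 tested, 0 were called lower and 0 higher (adjusted p under 0.05 by edgeR's quasi-likelihood test, with Benjamini-Hochberg adjustment over all tested genes), beside 2.31% of all genes called lower and 0.365% called higher. At an unadjusted p under 0.05, 10 of the 27 (37.0%) were lower in KO, against 8.77% of all genes. A negative log2 fold change (KO over WT) was found for 25 of 27 (92.6%), against 47.8% of all genes, with a median of -0.68 against 0.02 over all genes. DESeq2 called 4 of the 27 lower (Stat2, Oasl2, Dhx58 and Oas2) beside 3.89% of all genes, with the same 10 at an unadjusted p under 0.05, and limma-voom called 0.

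**Figure D1:**
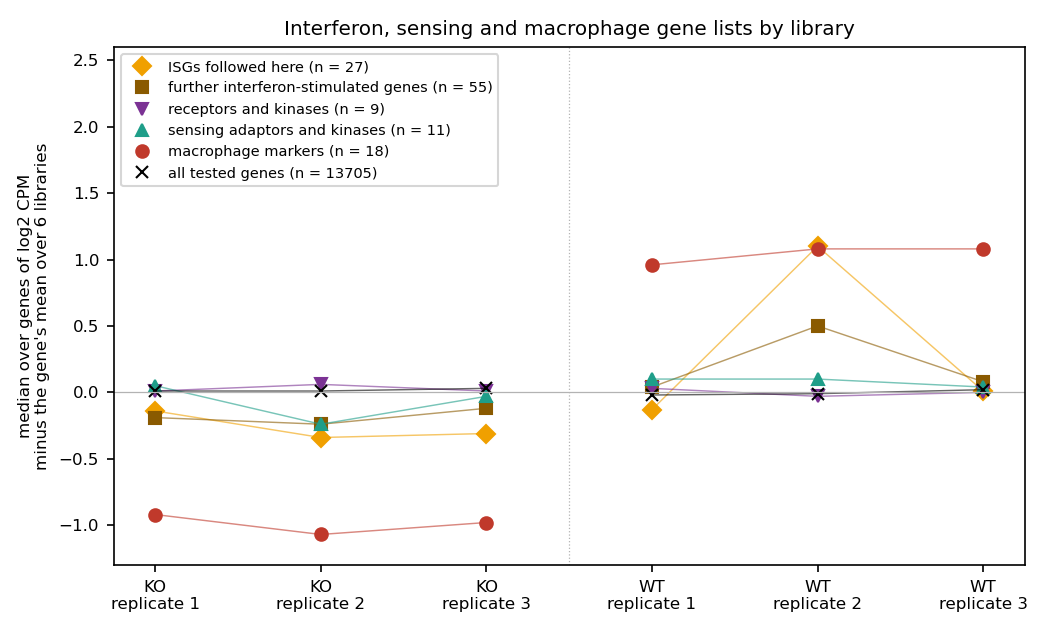
The median log2 deviation of each gene list from its mean over the libraries (vertical axis) is drawn for each of the 6 libraries (horizontal axis, KO left of WT). The 27 tested ISGs reach 1.1 in WT replicate 2 and lie between -0.34 and 0.01 elsewhere, whereas the macrophage markers lie at 0.96, 1.08 and 1.08 in WT replicates 1, 2 and 3.

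With WT replicate 2 left out, the differences were smaller. The median log2 fold change of the 27 was then -0.20, against 0.01 over all genes, and 20 of them (74.1%) were negative, against 48.5%. Again 0 were called in either direction by edgeR, beside 0.957% of all genes called lower and 0.085% called higher. At an unadjusted p under 0.05, 3 of the 27 (11.1%) were lower in KO, namely Stat2, Oasl2 and Dhx58, against 5.76% of all genes. The smallest adjusted p among the 27 was 0.092 with all libraries and 0.36 without WT replicate 2. Every KO library lay below every WT library for 7 of the 27 (25.9%), against 11.0% of all genes, and above every WT library for 0, against 9.9%. Leaving out a library cannot undo this condition, so the same 7 genes were certain to meet it without WT replicate 2 (25.9%, against 13.1%). Then 2 others, Gbp2 and Ifi44, were higher in every KO library than in WT replicates 1 and 3 (against 12.2%). The 7 genes were Stat2, Irf9, Ifit1, Oas2, Oasl2, Bst2 and Dhx58.

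**Figure D2:**
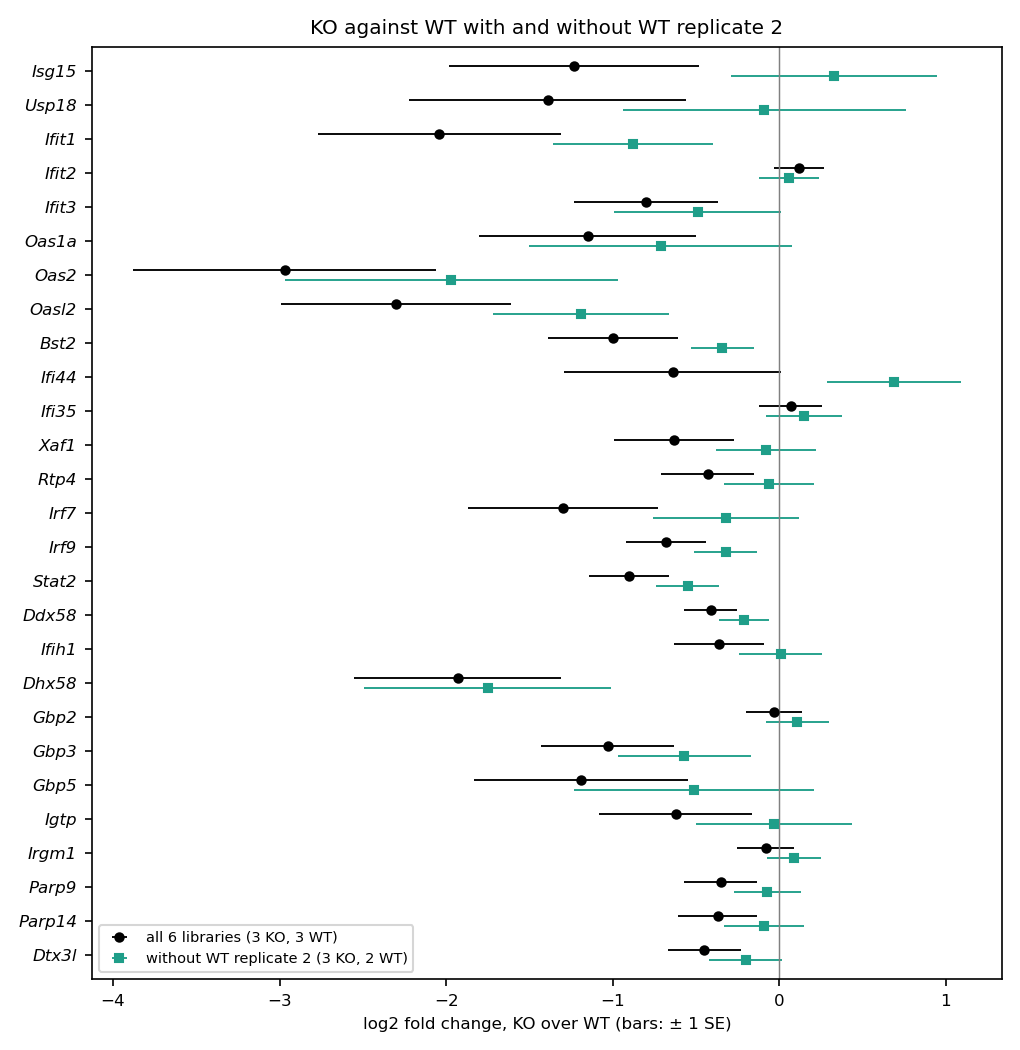
Log2 fold changes of KO over WT (horizontal axis, with standard errors as bars) are drawn for the 27 tested ISGs (one per row), with all libraries and without WT replicate 2. Most points lie left of 0 and move towards 0 when that library is left out, as for Ifit1 (-2.04 and -0.88), while Dhx58 (-1.93 and -1.75) hardly moves.

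Many of these promoters share the sequence that ISGF3 and other IRF factors bind. RefSeq promoters (250 bases before the transcript start, build GRCm38.p6) were searched in 24 of the 34 genes for GAAA, any 2 bases and GAAA again on either strand (on the other strand this reads TTTC, any 2 bases, TTTC). The letters occurred in 12 of the 24 genes (50%), against 3.46% of all 27025 genes with a RefSeq promoter. The 12 were Isg15, Ifit1, Ifit3, Oas1a, Rsad2, Bst2, Stat2, Gbp2, Gbp3, Gbp5, Igtp and Irgm1. The shorter TTCNNNGAA, the letters of a STAT site, occurred in 5 of the 24 (20.8%), against 8.13% of all genes. The stretches around the motif are shown for 5 of the 12, those that also had among the 8 smallest p in either fit or the 8 largest ratios of the highest to the next library, on the plus strand or the minus strand as each gene runs, with the matched letters in capitals (overlapping matches run together). The match nearest the transcript start began 66 bases before it in Isg15, 85 in Ifit1, 124 in Bst2, 39 in Gbp3 and 222 in Stat2.
Isg15 (chr4:156200845-156200906, minus strand): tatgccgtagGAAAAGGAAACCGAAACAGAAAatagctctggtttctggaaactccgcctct
Ifit1 (chr19:34640775-34640843, plus strand): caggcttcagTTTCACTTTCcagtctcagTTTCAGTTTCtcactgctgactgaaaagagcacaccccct
Bst2 (chr8:71537557-71537626, minus strand): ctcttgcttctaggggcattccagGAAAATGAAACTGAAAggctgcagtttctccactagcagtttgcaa
Gbp3 (chr3:142559975-142560025, plus strand): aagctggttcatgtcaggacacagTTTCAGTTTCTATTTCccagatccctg
Stat2 (chr10:128270248-128270315, plus strand): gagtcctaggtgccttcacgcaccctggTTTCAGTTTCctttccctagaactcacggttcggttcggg

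A match is a description of letters and was not shown to be a bound site. The tested ISGs with and without the motif overlapped in how far WT replicate 2 exceeded the mean of WT replicates 1 and 3. The 11 with it had ratios of 1.3 to 6.90 with a median of 2.15, and the 10 without it 0.878 to 5.58 with a median of 1.86. Isg15, with 3 overlapping matches, had the largest ratio (6.90), and Gbp2, which also holds the motif, had 1.3.

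Of the 3 factors that carry the signal to the nucleus, Stat2 came closest to the threshold. Stat2 (chromosome 10, 128270559 to 128292849, plus strand, GRCm38), the STAT that is particular to type I and III interferon signalling, had 15.3, 13.5 and 16 CPM in KO replicates 1, 2 and 3, against 23.7, 39.0 and 19.4 CPM in WT replicates 1, 2 and 3. All KO libraries lay below all WT libraries, and WT replicate 2 was the highest. Its log2 fold change was -0.90 ± 0.24 (SE), 1.86-fold lower in KO, with an adjusted p of 0.092 (edgeR), and -0.55 ± 0.19 without WT replicate 2 (adjusted p = 0.36). DESeq2 gave an adjusted p of 0.012 for Stat2, and edgeR 0.0493 without WT replicate 3, so its call depended on the tool and on 1 library.

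Irf9, the DNA-binding subunit of ISGF3, had 19.2, 14.1 and 16.2 CPM in KO, against 19.8, 37.4 and 20.9 CPM in WT. Again no KO library reached a WT library, although KO replicate 1 and WT replicate 1 nearly met. Its log2 fold change was -0.68 ± 0.24 (adjusted p = 0.231, edgeR), and -0.32 ± 0.19 without WT replicate 2. Irf7, the factor that amplifies interferon-α production, had 3.21, 1.42 and 2.20 CPM in KO, against 3.13, 11.0 and 2.47 CPM in WT. Here the groups overlapped, because WT replicates 1 and 3 lay among the KO libraries and only WT replicate 2 stood above them. The log2 fold change of Irf7 was -1.3 ± 0.57 (adjusted p = 0.337, edgeR) with all libraries and -0.32 ± 0.44 (adjusted p = 0.884) without that one.

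ISG15, a ubiquitin-like protein that is attached to other proteins, and USP18, the protease that removes it and damps the receptor, are made from transcripts that were scarce in 5 libraries. Isg15 (chromosome 4, 156199424 to 156200818, minus strand) had 1.69, 0.801 and 0.859 CPM in KO, against 0.869, 6.02 and 0.877 CPM in WT. WT replicates 1 and 3 were level with KO replicates 2 and 3, below KO replicate 1, and WT replicate 2 was 3.55 times the next library. This gave a log2 fold change of -1.23 ± 0.75 (adjusted p = 0.466, edgeR), and it was positive, 0.33 ± 0.62, without WT replicate 2. Usp18 had 1.03, 0.616 and 0.483 CPM in KO, against 0.174, 4.03 and 1.32 CPM in WT. WT replicate 1 was at about the level that a count of 0 allows, and WT replicate 2 was 3.07 times the next. The log2 fold change of Usp18 was -1.39 ± 0.83 (adjusted p = 0.458, edgeR), and -0.09 ± 0.85 without that library.

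The transcripts of the IFIT proteins, which bind foreign RNA and are encoded in a cluster on chromosome 19, did not move alike. Ifit1 (34640871 to 34650009, plus strand) had 1.75, 0.924 and 3.06 CPM in KO, against 3.36, 16.6 and 3.62 CPM in WT. KO replicate 3 came close to WT replicates 1 and 3, and WT replicate 2 was 4.58 times the next library, the largest such ratio among the tested ISGs. That made a log2 fold change of -2.04 ± 0.73, 4.12-fold lower in KO (adjusted p = 0.268, edgeR), and -0.88 ± 0.48 (adjusted p = 0.724) without WT replicate 2. Ifit3 had a log2 fold change of -0.80 ± 0.43, with levels of 1.07 to 2.48 CPM in KO and 2.03 to 3.85 CPM in WT. How reads shared between Ifit3 and its close copy Ifit3b were counted is not known. Ifit2, whose gene ends 7111 bases before Ifit3 begins, did not share the pattern. It had 22.2, 26.1 and 25.1 CPM in KO, against 19.6, 20.3 and 26.6 CPM in WT. No excess of WT replicate 2 was seen for it, with a log2 fold change of 0.12 ± 0.15 (adjusted p = 0.721, edgeR).

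The OAS family makes or resembles the enzymes that synthesise oligoadenylate and so activate the nuclease RNase L. Oas2 had 0.302, 0.308 and 0 CPM in KO, against 0.695, 3.16 and 0.877 CPM in WT, which were 5, 5 and 0 counts against 12, 51 and 16 counts. All KO libraries lay below all WT libraries at counts close to the floor. The log2 fold change of Oas2 was -2.97 ± 0.91 (adjusted p = 0.15, edgeR), and -1.97 ± 1 without WT replicate 2. Oasl2, an OAS-like protein, had 2, 0.555 and 1.34 CPM in KO, against 2.90, 13.2 and 2.96 CPM in WT. Here too the groups did not overlap, and WT replicate 2 was 4.44 times the next library. Its log2 fold change was -2.30 ± 0.69, 4.93-fold lower in KO (adjusted p = 0.167, edgeR), and -1.19 ± 0.53 (adjusted p = 0.608) without that library. Oas1a, which has close copies in its cluster, was at 0.322 to 0.678 CPM in KO and 0.347 to 1.74 CPM in WT (-1.15 ± 0.65).

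**Figure D3:**
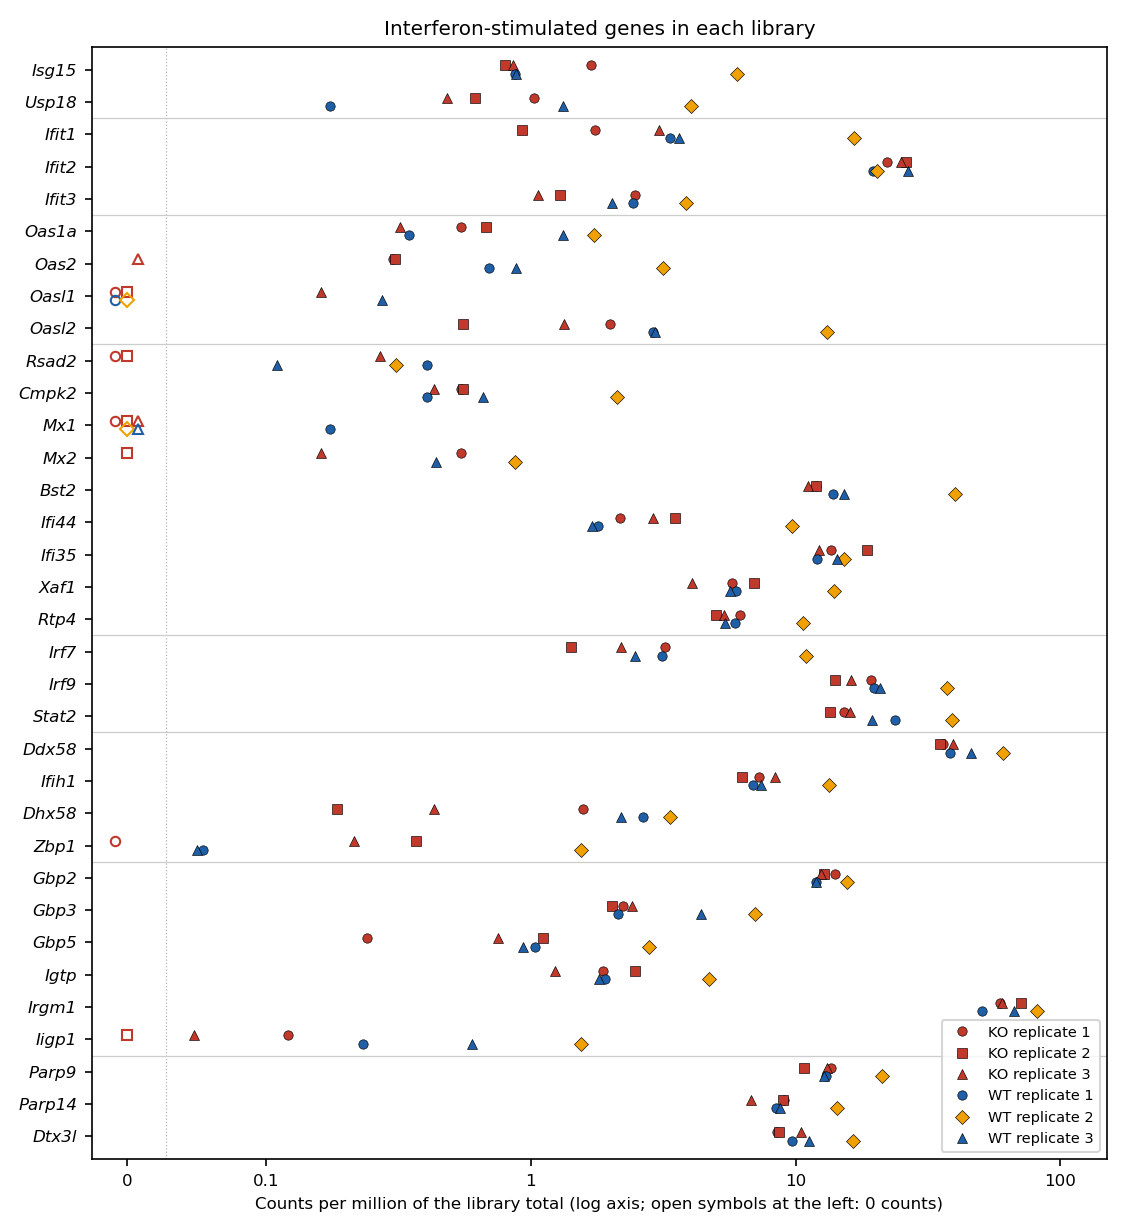
Levels in CPM (horizontal axis, log scale, with open symbols at the left for 0 counts) are drawn for all 34 ISGs (one per row, grouped by role), with 1 symbol per library and KO above WT within a row. WT replicate 2 lies far to the right of the other libraries for Ifit1 (16.6 against 3.62 CPM in the next) and among them for Ifit2 (20.3 CPM).

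Among the other antiviral effectors, Bst2 (chromosome 8, 71534255 to 71537456, minus strand), the gene of tetherin, which holds budding virions at the cell surface, had 11.9, 12 and 11.1 CPM in KO, against 13.8, 40.1 and 15.2 CPM in WT. The 3 KO libraries were close to one another and below all WT libraries. The log2 fold change of Bst2 was -1.0 ± 0.39 (adjusted p = 0.3, edgeR), and -0.34 ± 0.19 (adjusted p = 0.743) without WT replicate 2. Ifi44 had 2.18, 3.51 and 2.90 CPM in KO, against 1.80, 9.74 and 1.70 CPM in WT. Each KO library lay above WT replicates 1 and 3 and below WT replicate 2, so the sign turned with that library. Its log2 fold change was -0.64 ± 0.65 (adjusted p = 0.661, edgeR) with all libraries and 0.69 ± 0.40 (adjusted p = 0.757) without that one. Xaf1, a pro-apoptotic factor (-0.63 ± 0.36), and Rtp4, which was first described as a chaperone of taste receptors (-0.43 ± 0.28), came to -0.08 and -0.06 without WT replicate 2. Ifi35 did not share the pattern, with 12.3 to 18.6 CPM in KO and 12.1 to 15.3 CPM in WT (0.07 ± 0.19).

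Of the sensors of cytosolic RNA, Ddx58, which encodes RIG-I (chromosome 4, 40203773 to 40239828, minus strand), had 36.2, 35.1 and 39.3 CPM in KO, against 38.2, 60.8 and 46.0 CPM in WT. WT replicate 1 lay within the KO libraries, so the groups overlapped. The test gave a log2 fold change of -0.41 ± 0.16 (adjusted p = 0.281, edgeR), and -0.21 ± 0.15 without WT replicate 2. Dhx58, the gene of LGP2, which regulates RIG-I and MDA5, had 1.57, 0.185 and 0.43 CPM in KO, against 2.66, 3.35 and 2.19 CPM in WT. KO replicate 2 was at about the level that a count of 0 allows. The WT libraries were close together for this gene, and all KO libraries, at 26, 3 and 8 counts, were lower. Its log2 fold change was -1.93 ± 0.62, 3.80-fold lower in KO (adjusted p = 0.175, edgeR), and it stayed at -1.75 ± 0.74 (adjusted p = 0.572) without WT replicate 2. Without KO replicate 1 Dhx58 passed (adjusted p = 0.0239, edgeR), and DESeq2 called it on all libraries (adjusted p = 0.0486). Ifih1, which encodes the third sensor, MDA5, had 6.29 to 8.38 CPM in KO and 6.89 to 13.4 CPM in WT (-0.36 ± 0.27, and 0.01 ± 0.25 without WT replicate 2).

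The interferon-inducible GTPases, which act on vacuoles that hold pathogens, are known above all as targets of interferon-γ. Gbp3 (chromosome 3, 142560026 to 142573209, plus strand) had 2.24, 2.03 and 2.42 CPM in KO, against 2.14, 7.01 and 4.38 CPM in WT. WT replicates 2 and 3 lay above the KO libraries and WT replicate 1 among them. The difference on the log2 scale was -1.03 ± 0.40 (adjusted p = 0.271, edgeR), and -0.57 ± 0.40 without WT replicate 2. Gbp5 (-1.19 ± 0.64) and Igtp (-0.62 ± 0.46) were low, with 0.242 to 1.11 and 1.24 to 2.47 CPM in KO and 0.932 to 2.79 and 1.81 to 4.72 CPM in WT. The abundant members Gbp2 (-0.03 ± 0.17) and Irgm1 (-0.08 ± 0.17) stood near 0, and both became positive without that library, at 0.11 and 0.09. Parp9, Parp14 and Dtx3l, a ubiquitin ligase with its ADP-ribosyltransferase partners, lie next to one another on chromosome 16 and had log2 fold changes of -0.35 ± 0.22, -0.37 ± 0.24 and -0.45 ± 0.22. All 3 genes had their highest level in WT replicate 2. Parp9 and Dtx3l overlap by 682 bases on opposite strands, and the strand of the reads is not stated, so reads of the overlap cannot be assigned.

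The other 7 genes were too low to be tested. Zbp1, a sensor of Z-form nucleic acid, had 0, 6 and 4 counts in KO, against 1, 25 and 1 counts in WT. Cmpk2, a mitochondrial nucleotide kinase whose gene lies 12751 bases from Rsad2, had 9, 9 and 8 counts in KO, against 7, 34 and 12 counts in WT. Both were thus raised in WT replicate 2 as well, at 1.55 CPM for Zbp1 (4.2 times the next library) and 2.11 CPM for Cmpk2 (3.21 times). Iigp1, an interferon-γ-inducible GTPase, had 2, 0 and 1 counts in KO, against 4, 25 and 11 counts in WT, without overlap. Rsad2, the gene of viperin, had 0, 0 and 5 counts in KO, against 7, 5 and 2 counts in WT. Mx2, of the dynamin-like antiviral GTPases but annotated as a polymorphic pseudogene, had 9, 0 and 3 counts in KO, against 15, 14 and 8 counts in WT. WT replicate 2 was not set apart for Rsad2 or Mx2. Mx1 had 0 counts in each KO library, against 3, 0 and 0 counts in WT, and the OAS-like gene Oasl1 had 0, 0 and 3 counts in KO, against 0, 0 and 5 counts in WT. With no filter on low counts, 8 of the 34 were called lower by edgeR, beside 2.6% of all genes (24034 tested in that fit), namely Stat2, Irf9, Irf7, Bst2, Oasl2, Dhx58, Oas2 and Iigp1.

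The ISGs spanned a wide range of levels. Per kilobase of the deposited gene length, the order of KO means was led by Bst2 (12.9 CPM per kb in KO and 25.5 in WT), Irgm1 (10.9 and 11.4), Ifi35 (8.59 and 8.04), Ifit2 (6.23 and 5.65), Ddx58 (5.22 and 6.86) and Gbp2 (5.22 and 5.23). Irf9 (3.06 and 4.83) and Stat2 (2.52 and 4.62) came among the next, and Isg15, an abundant transcript in interferon-treated cells, had 1.48 CPM per kb in KO and 3.42 in WT, or 1.15 in WT replicates 1 and 3. The last place was that of Mx1, with no count in KO. Summed over the 34 genes, the level was 264, 267 and 259 CPM in KO replicates 1, 2 and 3, against 266, 493 and 301 CPM in WT replicates 1, 2 and 3. In this sum WT replicate 1 was at the level of the KO libraries, and WT replicate 2 alone was far above them. Abundant genes weigh most in it, such as Irgm1 and Ddx58, with 50.7 and 38.2 CPM in WT replicate 1. For the 7 genes without overlap between the groups, WT replicate 1 lay above every KO library by the definition of that set, which adds no further evidence.

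**Figure D4:**
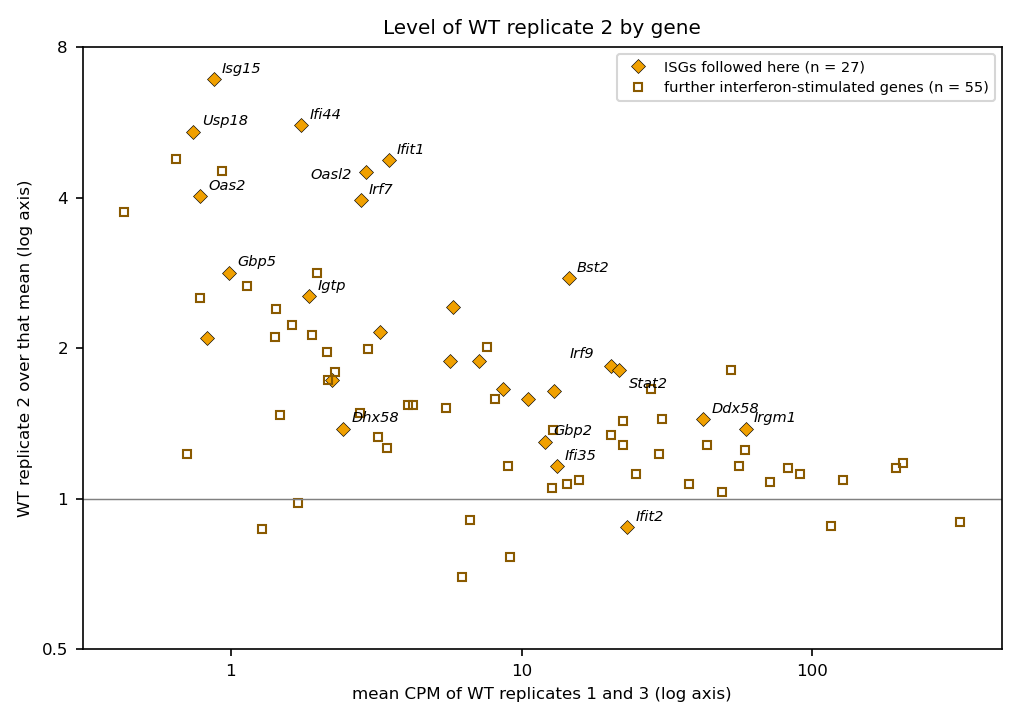
The ratio of WT replicate 2 to the mean of WT replicates 1 and 3 (vertical axis, log scale) is drawn against the mean level of those 2 libraries in CPM (horizontal axis, log scale), with a point per tested ISG or further ISG. The highest ratios belong to ISGs of low level, such as Isg15 (6.90) and Ifi44 (5.58), and the more abundant Irgm1 (1.38) and Ddx58 (1.44) lie lower. The mean of WT replicates 1 and 3 enters both axes, and counting error is largest at low levels. The figure therefore cannot tell whether the ratio depends on the level.

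How closely an ISG followed the others differed within the list. The correlation of each gene's log2 CPM with the mean of the other tested ISGs, over 6 libraries that share WT replicate 2, was 0.985 for Bst2, 0.973 for Irf9 and 0.939 for Rtp4, but 0.144 for Ifi35 and -0.514 for Ifit2. Over the 5 libraries without WT replicate 2 it was 0.908 for Bst2 and 0.855 for Irf9, the highest values among the tested ISGs. It fell to 0.396 for Rtp4, and from 0.888 to 0.122 for Isg15. The correlation was then -0.907 for Ifi44, and also negative for Ifit2, Ifi35, Ifih1, Gbp2, Gbp5 and Irgm1. Only Dhx58 (0.632 to 0.737) and Ifit2 (-0.514 to -0.177) had a higher value without that library. Among all other tested genes, the 12 most alike in pattern to the mean of the ISGs were Orai3, Serinc2, Pam, Lrrc8d, Lgals3bp, Ripk1, Micall2, Slfn10-ps, 1700086O06Rik, Ifi27l2a, Mageh1 and Parp12, with correlations of 0.934 to 0.986 over the 6 libraries. Lgals3bp, Ifi27l2a and Parp12 are themselves known ISGs. Lgals3bp had 50.2, 39.1 and 43.8 CPM in KO, against 54.5, 94.4 and 50 CPM in WT, whereas Pam, which was as alike by correlation (0.981), spanned only 294 to 313 CPM. Likeness of pattern therefore did not mean a like size of difference. Of the 107 genes for which WT replicate 2 was at least 1.5 times the next library, 19 were among the 34 ISGs (17.8%), 10 were further ISGs (9.35%) and 77 were in no list used here.

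Further up the pathway, interferon transcripts were all but absent. Of 21 interferon genes, 19 had no count in any library, among them Ifnb1 and Ifng, which allows at most 0.161 to 0.186 CPM in a library. Ifnz had 2, 0 and 2 counts in KO, against 2, 0 and 6 counts in WT, and Ifne had 2 counts in WT replicate 3 alone. WT replicate 2 held no count of any of the 21. Of the receptor chains and their kinases, 0 of 9 were called by edgeR and 0 had an unadjusted p under 0.05, with a median log2 fold change of 0.03. WT replicate 2 was the highest library for 0 of these 9. Ifnar1, a chain of the type I receptor, had 70.9, 70.9 and 70.6 CPM in KO, against 67.3, 68.1 and 72.1 CPM in WT. The smallest p in this group were those of Il10rb (-0.30 ± 0.14), Tyk2 (-0.29 ± 0.18) and Jak2 (0.17 ± 0.11), with adjusted p of 0.371, 0.474 and 0.48 (edgeR).

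Of the other STAT and IRF factors, 0 of 6 tested were called (edgeR, 1 at an unadjusted p under 0.05), with Stat3 (-0.28 ± 0.12), Irf3 (0.26 ± 0.15) and Irf1 (-0.43 ± 0.27) having the smallest p. Irf8, a factor of myeloid cells, was too low to be tested, with 3, 4 and 3 counts in KO, against 10, 30 and 13 counts in WT. Among sensing adaptors and kinases, 1 of 11 tested was called. Tlr7, an endosomal sensor of single-stranded RNA that leukocytes express, fell by 2.66 on the log2 scale (-2.66 ± 0.43, adjusted p = 0.0076, edgeR), and was still called without WT replicate 2 (-2.69 ± 0.5, adjusted p = 0.0362) but not without WT replicate 3 (adjusted p = 0.0521). Its levels were 1.09, 0.37 and 1.83 CPM in KO, against 6.02, 6.64 and 8.17 CPM in WT. WT replicate 2 was not raised over the other WT libraries here, in contrast to its position for most ISGs. Trim25, the ubiquitin ligase that acts on RIG-I (-0.53 ± 0.14), and Tmem173, which encodes STING (-0.37 ± 0.14), did not pass, with adjusted p of 0.092 and 0.261 (edgeR).

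Among negative regulators, 1 of 10 tested was called, Ptpn6, a phosphatase of blood cells also named SHP-1 (-2.71 ± 0.57, adjusted p = 0.0319, edgeR). It had 0.121, 0.308 and 0.698 CPM in KO, against 2.08, 2.11 and 3.34 CPM in WT, and was not called without WT replicate 1, 2 or 3 or KO replicate 1 (adjusted p of 0.121, 0.119, 0.154 and 0.069). Adar (-0.39 ± 0.18) and Socs3 (-0.39 ± 0.19) did not pass. Tlr7 and Ptpn6 differed together with the macrophage markers, of which 14 of 18 tested were called lower in KO with a median log2 fold change of -2.01. Aif1 and Cx3cr1, which are among those markers, had 0 to 1 and 0 to 6 counts per library. The part of the macrophage markers in these differences, and in that of Irf8, was not tested.

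Most of the genes that could be tested among a further 73 ISGs differed in the same direction. Their median difference was smaller than that of the 27 only when WT replicate 2 was included. Of 55 tested, 2 were called lower (3.64%, beside 2.31% of all genes) and 0 higher (beside 0.365%). Among the 55, 48 were negative (87.3%, against 47.8% of all genes) and the median log2 fold change was -0.31. WT replicate 2 was the highest library for 39 (70.9%, against 12.6% of all genes) and at least 1.5 times the next for 10 (18.2%, against 0.781%). Every KO library lay below every WT library for 15 of the 55 (27.3%), against 11.0% of all genes. The 2 called were Slfn2 and Mov10. Slfn2, which is needed for leukocyte quiescence, fell to 2.96, 1.79 and 3.76 CPM in KO, against 7.06, 12.8 and 9.15 CPM in WT (-1.78 ± 0.31, adjusted p = 0.0134, edgeR). It was not called without WT replicate 2 (-1.53 ± 0.34, adjusted p = 0.0897) or WT replicate 3 (0.0547). Mov10, an RNA helicase that restricts retroelements, fell to 9.13, 5.49 and 7.74 CPM in KO, against 15.5, 15.3 and 13.0 CPM in WT (-0.99 ± 0.21, adjusted p = 0.0323, edgeR). The WT libraries were close to one another for Mov10, but it was not called without WT replicate 1, 2 or 3 or KO replicate 3 (adjusted p of 0.184, 0.177, 0.0749 and 0.121). Sp100, a nuclear body protein, came next (-1.31 ± 0.34, adjusted p = 0.0828, edgeR). Without WT replicate 2, 0 of 58 tested further ISGs were called by edgeR. An unadjusted p under 0.05 with a lower level in KO was found for 6 (10.3%, against 5.76% of all genes). Their median log2 fold change over the 58 was -0.20, the same as for the 27 ISGs above.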

How the data were processed

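RNA-seq libraries of 3 Ccrl2-KO and 3 WT cultures were compared. Per the labels' protocols, TRIzol RNA was used with an NEBNext Ultra kit. Strand is not stated. The authors deposited 1 table of whole-number counts per gene, not normalized, with a gene length in bases (the deposited value of another kind). HISAT2, StringTie, SAMtools and mm9 are named, with no role, per the submitters' processing notes. Which program counted the reads is unknown. The start and end of 53499 of the 54409 identifiers shared with GENCODE M21 (98.3%) were identical there, so coordinates are GRCm38. What Ctrl in the column names means is unknown, and it may stand for cells without TNFα.

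Columns were matched to samples by genotype and replicate number. The closest libraries of 1 group differed by a chi-square of 4.54 per gene, so none was a repeat. Same-numbered libraries did not deviate together and were not treated as pairs. Genotypes were compared with edgeR 4.0.16 under R 4.3.3 (quasi-likelihood test on counts, robust moderation, TMM scaling, and filterByExpr with a minimum count of 10 and a total of 15), adjusted by Benjamini-Hochberg over all tested genes and called at 0.05. The SE is the size of the log2 fold change over the square root of F. The fit without WT replicate 2 has 3 libraries against 2. An exact permutation test of 3 against 3 cannot go below p = 0.10, so none was used. Correlations use log2 CPM with a prior count of 0.5. Alternatives were DESeq2 1.42.0, limma-voom (limma 3.58.1), other scalings, filters, no robust moderation, the replicate block and libraries left out. Scripts were tested on simulated data. Promoters were searched on 250 bases in 24 genes, without Iigp1, Usp18, Oas2, Dhx58, Mx1, Mx2, Parp9, Parp14, Rtp4 and Zbp1.

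The 34 genes and all lists were chosen with earlier results of these data known. Values in every library are given for the 8 smallest p in either fit and the 8 largest ratios of the highest to the next library with at least 10 counts in the highest. They are also given for Ifit2 and the untested Rsad2, Mx1, Mx2, Oasl1 and Iigp1, chosen after the values were seen. Of the other lists, called genes and the 3 of smallest p are named, with the 12 genes most alike in pattern. The 1.5-fold margin, Irf8, Ifnar1 and the ligands with counts were chosen after the values were seen. Genes with near-identical copies are uncertain. A result on 1 gene outside the 34 is not reported here.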

Additional observations from a re-analysis of the deposited data

How the results depend on the processing

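Other scalings, no robust moderation and limma-voom changed no call or direction of the named genes, although the numbers called over all genes moved. With these settings 287 to 315 genes were called lower and 38 to 57 higher, against 316 and 50. The stricter filter also changed no call or direction of the named genes. It tested 24 of the 27 ISGs and gave no value for Isg15, Oas1a, Oas2, Ifi27l2a and Slfn10-ps. With the replicate number as a block, the median log2 fold change of the tested ISGs was -0.63, 0 were called, and 292 genes were called lower and 39 higher over all genes. The block changed no call of a named gene, and the numbers do not pair the cultures (same-numbered libraries' deviations correlated at 0.119, -0.0869 and -0.159).

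Calls rested on the filter, the tool and single libraries, and the cause was not tested. Without the filter on low counts, 625 genes were lower and 258 higher in KO, with 8 of the 34 ISGs and 8 further ISGs lower. By DESeq2 these counts were 533, 123, 4 and 4. With libraries left out (each in turn, and KO replicate 2 with WT replicate 2), genes called lower ranged from 135 to 492 and higher from 12 to 118. ISGs called lower ranged from 0 to 1, further ISGs from 0 to 5 and other pathway genes from 0 to 3, and the ISG median from -1.01 to -0.16. The sign turned for 8 ISGs, with log2 fold changes of -1.66 to 0.52 for Isg15, -1.04 to 0.69 for Ifi44, -0.13 to 0.2 for Ifi35, -0.62 to 0.01 for Rtp4, -0.53 to 0.11 for Ifih1, -0.1 to 0.13 for Gbp2, -0.25 to 0.09 for Irgm1 and -0.49 to 0.03 for Parp9. The 7 untested ISGs had at most 34 counts in a library.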
